A study of Mus musculus with 2 samples.

Results

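The angiopoietin-Tie genes described here are 7 of the 32285 genes in the count matrices: the ligand genes Angpt1 and Angpt2, the receptor genes Tek (which encodes Tie2) and Tie1, the receptor phosphatase gene Ptprb (VE-PTP), the matrix protein gene Svep1 and the transcription factor gene Foxo1. They were chosen by name as parts of this signaling pathway, with no threshold on their levels, and all 7 were found in the matrices under a single Ensembl identifier each. Their UMIs (unique molecular identifiers, each marking 1 captured RNA molecule) were summed over the cells of a class and divided by all UMIs of those cells, and this share times 1000000 is written as CPM.

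Single-cell RNA-seq (10x Genomics, 3′ end) was performed on sorted live CD31+CD45- cells from YUMMER1.7 tumors, a mouse melanoma line, grown in female mice aged 8 to 10 weeks. There were 2 libraries, 1 for each condition, and each was made from the pooled tumors of 3 mice. The control library is labelled C57BL/6, and the study's methods describe its control mice as carrying the Cre and the ZsGreen reporter. The Dnmt1iECKO library is labelled Cdh5CreERT2;Dnmt1fl/fl;ZsGreenlsl/lsl, in which tamoxifen activates a Cre driven by the Cdh5 promoter and deletes Dnmt1, the maintenance DNA methyltransferase, in endothelial cells (ECs) of the whole body and not of the tumor alone. The labels place the tumors under the skin and give the cell type as melanoma cells, whereas the study's methods describe lung tumors. The matrices held alveolar epithelial cells and lung capillary ECs of both kinds.

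With 1 library per condition there are no replicates, so no test between conditions was made, and every difference below compares 2 pools of mice. All intervals are exact 95% intervals that cover counting error only. The libraries also differed in what passed the sort, since 17.1% of the kept control cells and 57.5% of the kept Dnmt1iECKO cells held a UMI of Ptprc, which encodes CD45. ECs were cells with a UMI of Cdh5 or Pecam1 and none of Ptprc, which left 5544 control and 2408 Dnmt1iECKO ECs with medians of 10152.5 and 10788 UMIs per cell. There were 29 cell barcodes shared between the 9301 control and 9522 Dnmt1iECKO barcodes. Dnmt1 itself was at 51.5 CPM in control ECs and 37.3 in Dnmt1iECKO ECs, and at 53.9 and 27.0 in general capillary cells, a log2 ratio of -1.0 (-1.18 to -0.82). A lower level was not seen in every EC class described below. Veins held 35.4 and 38.8 CPM (34 and 48 UMIs) and post-capillary venule cells 24.7 and 42.4 (13 and 51 UMIs), and both intervals of the ratio held 0. In fibroblasts, which do not use the Cdh5 promoter, Dnmt1 stood at 56.1 and 61.6, and that interval held 0.

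Angiopoietins are secreted proteins that bind the receptor tyrosine kinase Tie2 on endothelium. Angiopoietin-1, made largely by mural and other stromal cells, activates Tie2 and keeps vessels quiet and tight, while angiopoietin-2, made by ECs themselves, acts as a weaker or opposing ligand depending on the setting. Tie1 binds no angiopoietin by itself and modulates Tie2, VE-PTP removes phosphate from Tie2, SVEP1 is an extracellular matrix protein that binds Tie1, and FOXO1 is kept out of the nucleus when Tie2 signals through AKT. In the lung the pathway spans capillaries of contrasting kinds, the large aerocytes that line the gas exchange surface and the general capillary cells that renew the bed.

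In the GENCODE M21 annotation of GRCm38 (mm10) Tek lies at chr4:94739289-94874976 on the plus strand and Tie1 at chr4:118471191-118490061 on the minus strand, and neither overlaps another annotated gene. Svep1, also on chromosome 4 and on the minus strand, lies at chr4:58042442-58206859. The ligand genes lie at chr15:42424723-42676977 (Angpt1, minus strand) and chr8:18690263-18741562 (Angpt2, minus strand), Ptprb lies at chr10:116275523-116389535 (plus strand), and Foxo1 lies at chr3:52268336-52353221 (plus strand). Angpt1, Angpt2 and Svep1 each overlap 1 gene, on the other strand (for Angpt2 the coding gene Mcph1), while Ptprb and Foxo1 each overlap 2 models that are not protein-coding, of which at least 1 shares their strand. Reads from shared bases on the same strand could be split between such genes, so those totals carry that uncertainty.

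The enzyme deleted in the Dnmt1iECKO mice copies methylation at CG dinucleotides, so the promoters that a RefSeq table gives for these genes are shown for their CG content. It held 4 of the 7 members. The 250 bases before the RefSeq start site are printed 5′ to 3′ on the gene's own strand from GRCm38.p6, with each CG in capitals, and no methylation was measured here.
Tek: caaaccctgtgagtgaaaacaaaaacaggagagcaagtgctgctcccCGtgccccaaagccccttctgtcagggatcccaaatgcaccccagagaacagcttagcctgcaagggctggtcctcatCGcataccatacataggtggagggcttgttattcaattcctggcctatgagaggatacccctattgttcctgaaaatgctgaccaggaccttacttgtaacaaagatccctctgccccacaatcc
Tie1: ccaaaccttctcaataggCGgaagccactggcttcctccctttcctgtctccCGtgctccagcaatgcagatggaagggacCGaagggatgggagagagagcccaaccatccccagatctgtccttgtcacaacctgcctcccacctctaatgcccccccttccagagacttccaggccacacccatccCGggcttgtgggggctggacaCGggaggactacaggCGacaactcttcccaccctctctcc
Foxo1: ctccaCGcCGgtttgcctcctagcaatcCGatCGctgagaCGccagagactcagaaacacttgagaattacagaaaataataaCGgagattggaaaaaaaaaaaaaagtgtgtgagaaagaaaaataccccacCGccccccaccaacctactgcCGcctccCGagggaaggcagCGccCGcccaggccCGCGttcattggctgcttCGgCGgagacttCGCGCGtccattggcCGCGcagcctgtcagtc
Svep1: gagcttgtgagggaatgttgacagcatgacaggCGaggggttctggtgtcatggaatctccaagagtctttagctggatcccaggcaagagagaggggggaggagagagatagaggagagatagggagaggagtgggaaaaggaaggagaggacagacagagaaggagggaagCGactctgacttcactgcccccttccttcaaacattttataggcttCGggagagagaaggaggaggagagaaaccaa
These windows are chr4:94739039-94739288 for Tek, chr4:118489850-118490099 for Tie1, chr3:52268087-52268336 for Foxo1 and chr4:58206597-58206846 for Svep1. RefSeq and GENCODE place some starts differently, so that by the GENCODE positions above the Tie1 window has 212 of its 250 bases inside the gene, the Svep1 window all 250, the Foxo1 window 1 and the Tek window 0. The Tek window held 2 CG dinucleotides, and 18.8% of the 32851 promoter windows in the table held fewer. The Svep1 window held 3, the Tie1 window 6, and the Foxo1 window 20, a number that 17.9% of all windows reached or passed, with a median of 6 over all windows. The core of ETS factor sites, GGAA on either strand, occurred 2 times for Tek, 7 for Tie1, 2 for Foxo1 and 6 for Svep1, and 93.4% of all windows held at least 1. The forkhead motif GTAAACA, on either strand, was in none of the 4 windows and in 3.17% of all windows. These are letter matches in a short window and not binding sites.

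EC classes were set by pairs of marker genes, with at least 1 UMI of each: Ednrb and Car4 for aerocytes (1186 control and 366 Dnmt1iECKO cells), Kit and Bmp6 for general capillary cells (2206 and 879), Slc6a2 and Selp for veins (60 and 68), and Gja5 and Bmx for arteries (34 and 30). Cells that passed several pairs (883 and 369) were set aside. Among further markers not used in the pairs, 10 of 10 aerocyte, 8 of 9 vein and 8 of 9 artery markers were at least 1 log2 unit higher in their class than in the other ECs, but only 4 of 8 general capillary markers, so that class rests mainly on its pair. Pericytes (47 and 24 cells) and fibroblasts (310 and 450) had no UMI of Cdh5, Pecam1 or Ptprc and at least 3 markers of their own list. Alveolar epithelial cells met the same rule with their own list, but could also pass the pericyte or fibroblast gate. Of these cells, 164 and 83 passed neither.

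Angpt1, the activating ligand, was highest in pericytes. It stood at 846 CPM in control pericytes (280 UMIs) and 860 in Dnmt1iECKO pericytes (207 UMIs), and the log2 ratio of Dnmt1iECKO over control was 0.02 (-0.24 to 0.29). That ratio rests on very few cells, since with doublets removed at 0.8% per 1000 cells, which left 21 of the 24 Dnmt1iECKO pericytes, their level was 1382 CPM and the ratio 0.71. Fibroblasts came next with 199 and 167. Pericytes exceeded the whole fibroblast gate 4.25-fold (3.73 to 4.82) in the control library and 5.15-fold (4.45 to 5.94) in the Dnmt1iECKO library, and they exceeded all ECs 18.0-fold and 14.9-fold. That gate also held cells with Hmga2, a gene of the melanoma marker list. Fibroblasts without Hmga2 stood at 387 and 400 CPM, and those with Pdgfra and Tcf21 at 470 and 561, so pericytes exceeded these by less. An Angpt1 UMI was found in 80.9% and 79.2% of pericytes, against 3.65% and 5.04% of alveolar epithelial cells, although pericytes were shallower (medians of 4246 and 6984.5 UMIs against 20058 and 26428). Those alveolar cells held 55 and 47 Angpt1 UMIs, of which 3 and 0 lay outside the pericyte and fibroblast gates.

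Pericytes were so few that they did not supply most of the Angpt1 molecules. Of all Angpt1 UMIs in a library, pericytes held 4.57% and 3.50%, fibroblasts 30.2% and 43.8%, and ECs 56.6% and 38.0%. These shares followed the mix of cells that the sort let through, in which ECs made up 71.4% of kept control cells and 30.7% of kept Dnmt1iECKO cells.

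Within ECs, Angpt1 was at 47.0 CPM (control) and 57.9 CPM (Dnmt1iECKO), a log2 ratio of 0.30 (0.23 to 0.38). It was at 27.6 and 30.9 in aerocytes and at 40.4 and 42.9 in general capillary cells, and both of these intervals held 0. Veins held almost none, with 2 UMIs (2.08 CPM) and 11 UMIs (8.89 CPM). Arteries were the highest EC class in the control library at 107 (49 UMIs) and stood at 58.7 (24 UMIs) in the Dnmt1iECKO library, a log2 ratio of -0.87 (-1.64 to -0.14) that rests on 34 and 30 cells. The summed smooth muscle markers of these control artery cells were at 802 CPM against 19.6 in the Dnmt1iECKO ones, and in the 16 and 23 artery cells without a UMI of any pericyte or smooth muscle marker Angpt1 was at 176 (33 UMIs) and 23.4 (7 UMIs). With each cell placed by the pair with the most UMIs, the artery ratio turned to 0.18.

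Most of the Angpt1 counted in ECs came from cells that also held RNA of stromal cells. ECs with no UMI of any of the 9 pericyte, 6 smooth muscle and 10 fibroblast markers (2914 control and 1198 Dnmt1iECKO cells) held only 11.4% and 6.01% of the Angpt1 UMIs of all ECs, at 14.1 and 11.8 CPM. Between the libraries that level had a log2 ratio of -0.26 (-0.55 to 0.03), so the direction seen over all ECs was not held in these cells. Split into classes and the ECs outside them, the marker-free cells went both ways. General capillary cells stood at 16.5 and 11.4 CPM (199 and 55 UMIs), a log2 ratio of -0.53 (-0.99 to -0.09). Aerocytes stood at 11.2 and 5.29 (77 and 10 UMIs), a log2 ratio of -1.08 (-2.19 to -0.12). ECs outside the 4 classes, those that passed several pairs included, stood at 10.3 and 15.5, a log2 ratio of 0.59 (0.09 to 1.08). ECs with such a marker were deeper, with medians of 12501 and 14451.5 UMIs against 8492 and 7952.5, so leaving them out also leaves out deep cells. Over all ECs the summed fibroblast markers were at 863 and 1298 CPM, the smooth muscle markers at 149 and 274, and the pericyte markers at 231 and 229, with Cox4i2, a defining pericyte gene, at 41.9 and 36.8. How far doublets, free RNA or true endothelial Angpt1 each contributed was not tested.

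**Figure D1:**
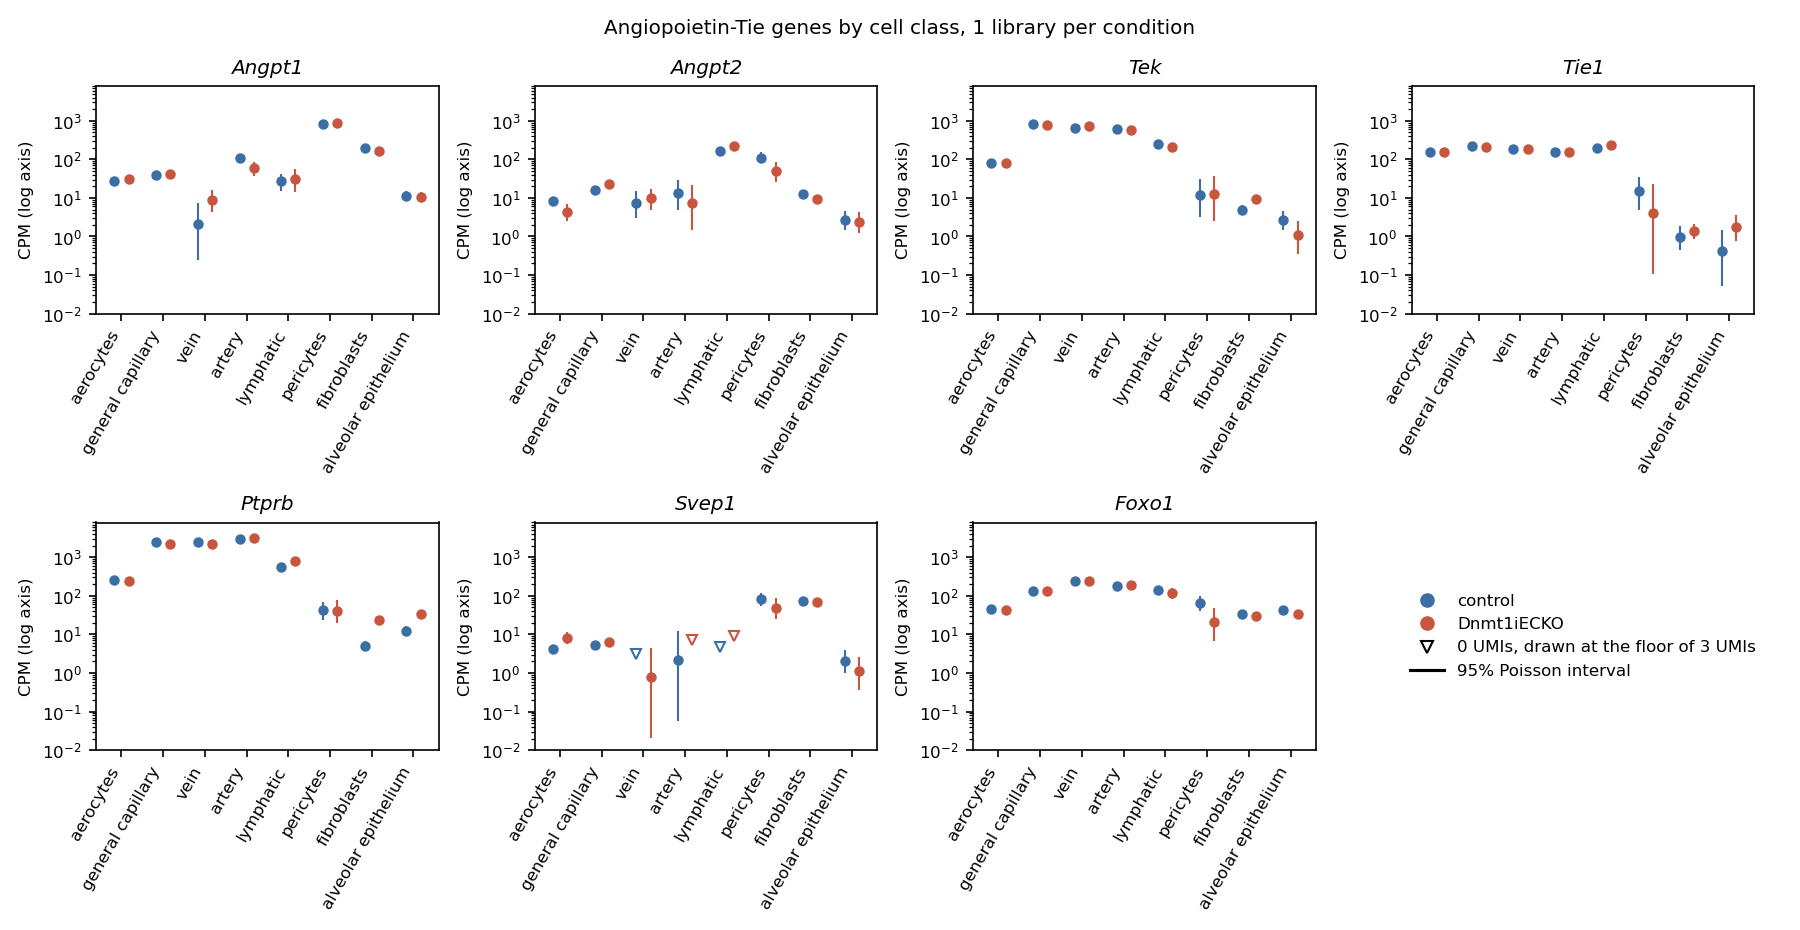
CPM (log axis) of each of the 7 genes in the 4 EC classes, lymphatic ECs, pericytes, fibroblasts and alveolar epithelial cells of the control (blue) and Dnmt1iECKO (red) libraries, with exact 95% counting intervals; an open symbol marks the limit of 3 counts where no UMI was seen. Angpt1 and Svep1 are highest in pericytes and fibroblasts, Tek and Ptprb are high in every blood vessel class but aerocytes, and Angpt2 peaks in lymphatic ECs.

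Angpt2, the context-dependent ligand, was a low-level gene in most ECs. Over all ECs it stood at 13.2 CPM in control (979 UMIs) and 17 CPM in Dnmt1iECKO ECs (661 UMIs), a log2 ratio of 0.36 (0.22 to 0.51). Over whole classes its highest level was in lymphatic ECs, set by Prox1 and Mmrn1 (40 and 20 cells), at 167 and 225 CPM. That is 12.6 times (10.2 to 15.4) and 13.2 times (10.2 to 16.8) the level over all ECs. Lymphatic cells with a pericyte, smooth muscle or fibroblast marker held 93.4% and 78.4% of these UMIs, but they were also most of the cells. The 9 and 3 lymphatic cells with none of these markers stood at 73.5 CPM (7 UMIs) and 332 CPM (16 UMIs). In the 18 and 7 lymphatic cells without pericyte or smooth muscle markers Angpt2 was at 66.7 CPM (14 UMIs) and 251 CPM (26 UMIs). The control interval of 36.5 to 111.9 reached the level of control pericytes, 111.8 CPM, so their order is not settled by these counts. The Dnmt1iECKO level was above that of Dnmt1iECKO pericytes, 49.9 CPM.

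Angpt2 was higher in Dnmt1iECKO than in control general capillary cells and lower in Dnmt1iECKO aerocytes, and the difference between these ratios was not tested. General capillary cells held 425 and 251 UMIs, or 16.0 and 23.0 CPM, a log2 ratio of 0.53 (0.30 to 0.76), with a UMI in 10.7% and 14.6% of the cells. Aerocytes held 105 and 17 UMIs, or 8.20 and 4.38 CPM, a log2 ratio of -0.90 (-1.74 to -0.16). The general capillary difference was also present in cells without pericyte or smooth muscle markers (17.2 and 28.7 CPM, log2 0.74, 0.45 to 1.02) and without these and fibroblast markers (19.6 and 26.4, log2 0.43, 0.11 to 0.75). The aerocyte difference was not as clear there, with 36 and 7 UMIs, 5.22 and 3.70 CPM, and an interval that held 0, and the ratio turned to 0.076 when each cell was placed by the pair with the most UMIs. The general capillary levels were close, at 13.6 and 14.4 CPM (1193 and 455 cells), when the marker pairs were read after thinning cells to equal depth. The size of that difference thus depended on how the class was gated. A single control general capillary cell held 44 Angpt2 UMIs, so a few cells weigh on these sums, and alveolar epithelial cells showed an Angpt2 UMI in 4.69% and 5.04% of cells. Of the 13 and 11 Angpt2 UMIs in those alveolar cells, 2 and 2 lay outside the pericyte and fibroblast gates.

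Other small classes held Angpt2 at intermediate levels. ECs with Ubd and Ido1, genes induced by interferon gamma (77 and 74 cells), stood at 50.3 and 30.3 CPM, a log2 ratio of -0.73 (-1.22 to -0.25). Post-capillary venule cells, with Ackr1 and Selp (20 and 46 cells), held 2 control and 24 Dnmt1iECKO UMIs, 3.80 and 19.9 CPM, a log2 ratio of 2.39 with an interval from 0.38 to 5.52. The summed pericyte markers of these venule cells were at 34.2 and 112 CPM and Cox4i2 at 1.90 and 19.9, and their part was not tested. Pericytes held 37 and 12 UMIs, 112 and 49.9 CPM, and fibroblasts 12.7 and 9.29. The pericyte gate was not of the same purity in the 2 libraries, since the summed fibroblast markers in it were at 1852 and 4963 CPM and the pericyte gene Cox4i2 at 1396 and 964, and their part in the pericyte values was not tested.

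Tek, which encodes the receptor Tie2, separated the lung capillary classes more sharply than it did the conditions. It was at 805 CPM in control general capillary cells and 769 in Dnmt1iECKO ones, and at 80.4 and 82.8 in aerocytes. General capillary cells thus exceeded aerocytes 10.0-fold (9.41 to 10.7) in the control library and 9.29-fold (8.31 to 10.4) in the Dnmt1iECKO library. The size of this gap depended on the gate. With each cell placed by the pair with the most UMIs, aerocytes stood at 210 and 255 CPM and general capillary cells at 778 and 707. With the pairs read on thinned cells, aerocytes stood at 172 and 196 and general capillary cells at 927 and 839. A Tek UMI was present in 97.5% and 96.8% of general capillary cells and 33.5% and 37.2% of aerocytes, at like median depths of 10007.5 and 10126 against 9831 and 9916 UMIs, and in 6.25% and 4.20% of alveolar epithelial cells. After every cell was thinned to 2000 UMIs the shares were 76.7% and 78.1%, 12.1% and 14.4%, and 0.621% and 0.935%, so aerocytes remained above the epithelial background.

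Veins and arteries carried Tek close to the general capillary level. Veins stood at 660 and 718 CPM, arteries at 621 and 572, and lymphatic ECs at 258 and 210. In the control library general capillary cells exceeded veins beyond counting error, and veins and arteries did not differ. In the Dnmt1iECKO library general capillary cells and veins did not differ beyond counting error, and veins exceeded arteries. Lymphatic ECs were below arteries and above aerocytes in both libraries, and pericytes, with 4 and 3 Tek UMIs, were at the bottom beside fibroblasts.

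Between conditions, the log2 ratio of Tek was -0.07 (-0.10 to -0.03) in general capillary cells, 0.04 (-0.14 to 0.23) in aerocytes, 0.12 (-0.03 to 0.27) in veins and -0.12 (-0.37 to 0.14) in arteries. In the artery cells without pericyte or smooth muscle markers (16 and 23 cells) Tek was at 850 and 541 CPM, a log2 ratio of -0.65 (-0.98 to -0.33), and without fibroblast markers as well it was -0.56 (-0.92 to -0.19). With each cell placed by the pair with the most UMIs (53 and 52 artery cells) the direction was the opposite, at 378 and 494 CPM. Over all ECs the log2 ratio of Tek was -0.21 (-0.24 to -0.18), from 491 to 424 CPM. ECs outside the aerocyte, general capillary, vein and artery classes, those that passed several pairs included, gave 390 and 297 (log2 -0.39). In ECs free of pericyte, smooth muscle and fibroblast markers the Tek ratio turned to 0.11 (0.07 to 0.15), with 596 and 642 CPM. Its direction over all ECs thus depended on which cells were admitted. Proliferating ECs, with Mki67 and Top2a (189 and 121 cells), held 155 and 82.2, a log2 ratio of -0.92. Cdh5 there was at 475 and 275 CPM, and Hmga2, a gene of the melanoma marker list, at 699 and 1160, and the part of such cells in the result was not tested.

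Tie1, the co-receptor, was far more even across the endothelium than Tek. It was at 218 and 204 CPM in general capillary cells, 187 and 189 in veins, 155 and 159 in arteries, and 153 and 154 in aerocytes. Lymphatic ECs held 197 and 231. When these 5 classes were ordered by level, no neighbors differed beyond counting error in either library, while the ends of the blood vessel order did, since general capillary cells exceeded aerocytes 1.42-fold (1.35 to 1.498) and 1.32-fold (1.20 to 1.45). Outside the endothelium Tie1 was near background, with 9 and 21 UMIs in fibroblasts, or 0.97 and 1.35 CPM.

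A Tie1 UMI was present in 70.4% and 71.6% of aerocytes and 83.6% and 81.9% of general capillary cells, against 1.04% and 3.36% of alveolar epithelial cells. Thus aerocytes, in which Tek was low, carried Tie1 in most cells. The log2 ratio between conditions was 0.01 (-0.12 to 0.14) in aerocytes and -0.10 (-0.17 to -0.03) in general capillary cells. Over all ECs it was -0.31 (-0.35 to -0.26), from 170 to 138 CPM. ECs without stromal markers gave 214 and 201, a log2 ratio of -0.09 (-0.16 to -0.02), so Tie1 kept its direction there at a smaller size.

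Ptprb, the phosphatase that restrains Tie2, ran parallel to Tek across the classes. General capillary cells held 2437 and 2235 CPM, veins 2537 and 2167, and arteries 2977 and 3216. Aerocytes held 259 and 241, so general capillary cells exceeded them 9.42-fold and 9.27-fold and arteries 11.5-fold and 13.3-fold. Lymphatic ECs stood between these at 571 and 787, a log2 ratio between conditions of 0.46 (0.23 to 0.70). The gap between general capillary cells and aerocytes depended on the gate for Ptprb too. With each cell placed by the pair with the most UMIs, aerocytes stood at 640 and 812 and general capillary cells at 2388 and 2137. With the pairs read on thinned cells, aerocytes stood at 525 and 634 and general capillary cells at 2781 and 2454. A Ptprb UMI was present in over 99% of general capillary cells in both libraries (99.6% and 99.7%), in 44.4% and 42.9% of aerocytes and in 13% and 10.9% of alveolar epithelial cells.

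Between conditions Ptprb was lower in several classes. The log2 ratio was -0.12 (-0.15 to -0.10) in general capillary cells, -0.23 (-0.31 to -0.15) in veins and -0.51 (-0.62 to -0.40) in post-capillary venule cells, where it went from 2218 to 1559 CPM. Aerocytes gave -0.10 (-0.21 to 0.003), but under both other gates given above their Ptprb level was higher in the Dnmt1iECKO library. Arteries gave 0.11 (0.0007 to 0.22), a value whose sign turned under 6 other choices of cells. Over all ECs the levels were 1531 and 1322, a log2 ratio of -0.21 (-0.23 to -0.20), and ECs without stromal markers gave 1768 and 1894, a log2 ratio of 0.10, so for Ptprb too the direction depended on which cells were admitted.

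Ptprb and Tek were also the members that were higher in Dnmt1iECKO fibroblasts. Ptprb held 47 and 359 UMIs there, 5.07 and 23.2 CPM, a log2 ratio of 2.19 (1.75 to 2.66), and Tek 46 and 148 UMIs, 4.96 and 9.55 CPM, a log2 ratio of 0.94 (0.46 to 1.46). Both levels are a small part of those in ECs. A single Dnmt1iECKO fibroblast held 80 Ptprb UMIs, and 59.9% of the Dnmt1iECKO Ptprb UMIs in this gate lay in the 125 cells with a UMI of Hmga2. Alveolar epithelial cells also held more Ptprb in the Dnmt1iECKO library, 60 and 157 UMIs, a log2 ratio of 1.48 (1.04 to 1.93). Of these UMIs, 40 and 4 lay outside the pericyte and fibroblast gates. The fibroblast gate thus held Ptprb in cells that also carried alveolar markers, and their part was not tested. In fibroblasts with UMIs of both Pdgfra and Tcf21 (151 and 199 cells), Ptprb was at 3.12 and 4.18 CPM with an interval of the ratio that held 0, while Tek was at 12.2 and 21.6.

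Svep1, the matrix ligand of Tie1, was a stromal gene in these libraries. It was at 84.6 CPM in control pericytes (28 UMIs) and 49.9 in Dnmt1iECKO pericytes (12 UMIs), and at 71.6 and 68.8 in fibroblasts. Pericytes and the whole fibroblast gate did not differ beyond counting error in either library. Between conditions the fibroblast log2 ratio was -0.06 (-0.20 to 0.08). The gate for fibroblasts also held cells with Hmga2 (76 and 125 cells), in which Svep1 was at 7.95 and 1.41 and Angpt1 at 22.8 and 7.60. In fibroblasts with Pdgfra and Tcf21, Svep1 was at 163 and 226, above the pericyte levels in both libraries, with a log2 ratio of 0.47 (0.32 to 0.63). Angpt1 was there at 470 and 561, a log2 ratio of 0.25 (0.16 to 0.35), where the whole gate gave Angpt1 a log2 ratio of -0.25 (-0.34 to -0.17).

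In ECs Svep1 was at low levels. Aerocytes held 4.14 and 8.25 CPM (53 and 32 UMIs), with a ratio of 1.0 on the log2 scale (0.32 to 1.66). General capillary cells held 5.33 and 6.52, with a UMI in 2.54% and 3.19% of cells against 2.08% and 1.68% of alveolar epithelial cells. The 164 and 83 alveolar cells outside the pericyte and fibroblast gates held 0 Svep1 UMIs in both libraries, so that share came from cells of those gates. No Svep1 UMI was counted in lymphatic ECs of either library, where a count of 0 allows levels of up to 4.72 and 9.11 CPM, and veins held 0 and 1 UMIs. ECs without pericyte, smooth muscle or fibroblast markers held 6 of the 847 control EC UMIs of Svep1 and 0 of the 545 Dnmt1iECKO ones, so 99.3% and 100% lay in ECs that also carried such a marker. In aerocytes without those markers 1 and 0 UMIs were left, and the difference in aerocytes therefore rests on cells with stromal RNA.

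**Figure D2:**
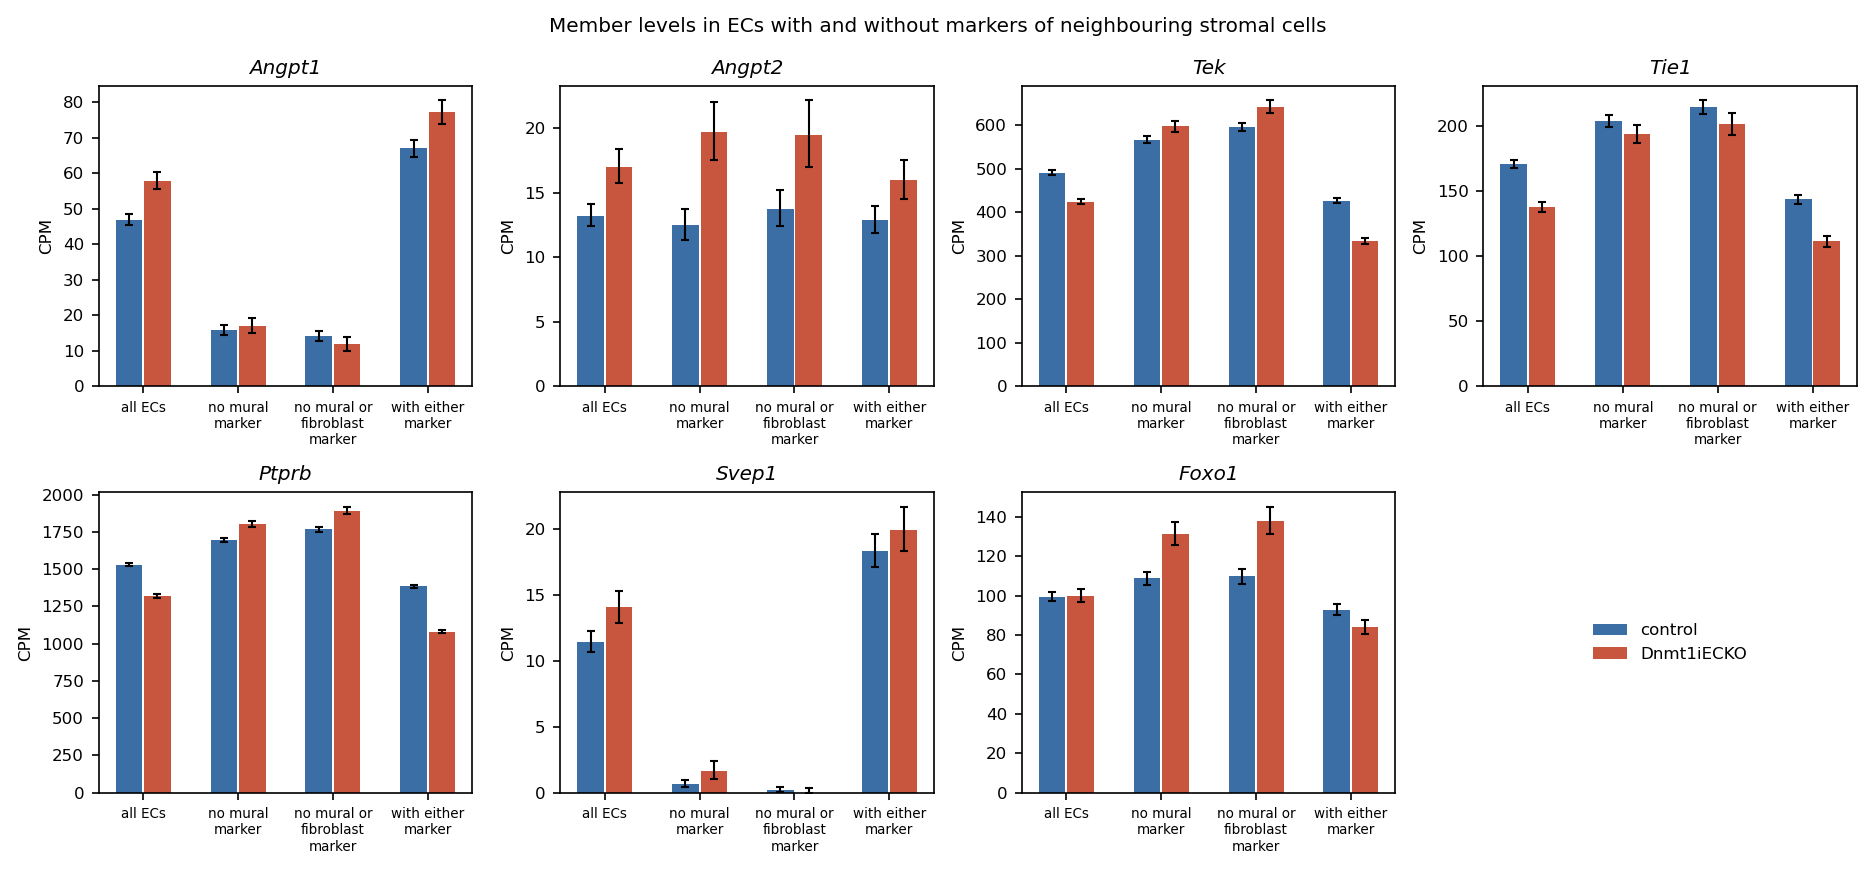
CPM (linear axis, a separate scale for each gene) over all ECs, ECs without pericyte or smooth muscle (mural) markers, ECs without these or fibroblast markers, and ECs with any of them, for the control (blue) and Dnmt1iECKO (red) libraries with exact 95% counting intervals. Angpt1 goes from 47.0 and 57.9 to 14.1 and 11.8 once marker-bearing cells are left out, Svep1 goes close to 0, and Tek and Ptprb change from lower to higher in the Dnmt1iECKO library.

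Foxo1, the transcription factor that Tie2 and AKT restrain, was the member with the broadest expression. Veins held the most among the 4 EC classes, 241 and 240 CPM, followed by arteries at 179 and 191 and general capillary cells at 132 in both libraries. Aerocytes held 44.7 and 42.0, so veins exceeded them 5.38-fold (4.60 to 6.28) and 5.71-fold (4.70 to 6.96). Fibroblasts stood at 33.3 and 30.2, alveolar epithelial cells at 43.6 and 33.6, and immune cells at 91.5 and 111. Because of the immune cells, ECs held 71.8% of the control library's Foxo1 UMIs but 31.8% of the Dnmt1iECKO library's, where Ptprc-positive cells held 63.1%.

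Between conditions Foxo1 was close to even in the main EC classes. Its log2 ratio was 0.01 (-0.05 to 0.07) over all ECs, -0.0007 (-0.09 to 0.09) in general capillary cells, -0.09 (-0.35 to 0.16) in aerocytes and -0.005 (-0.26 to 0.25) in veins. Post-capillary venule cells gave -0.46 (-0.77 to -0.15), from 272 to 198 CPM, and pericytes gave 22 and 5 UMIs. ECs without stromal markers gave 110 and 138, a log2 ratio of 0.33 (0.24 to 0.42). By class the marker-free cells gave 141 and 151 in general capillary cells, with an interval that held 0. In veins they gave 192 and 267 (log2 0.47, 0.11 to 0.83). Marker-free ECs outside the aerocyte, general capillary, vein and artery classes, those that passed several pairs included, gave 113 and 147 (log2 0.38, 0.22 to 0.53). FOXO1 is governed mainly by phosphorylation and by where in the cell it lies, which RNA counts do not measure.

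ECs outside the 4 classes held the members at levels of their own. ECs that passed several marker pairs carried Tek at 564 and 552 CPM and Ptprb at 1775 and 1810, close to even between conditions, but Angpt1 at 48.1 and 83.7 (log2 0.80, 0.66 to 0.94) and Svep1 at 7.18 and 18.7 (log2 1.38, 1.04 to 1.72). The summed pericyte markers of these cells were at 211 and 324 CPM and the fibroblast markers at 339 and 517, and their part was not tested. ECs with Ubd and Ido1 held Tek at 288 and 226, a log2 ratio of -0.35 (-0.53 to -0.17), and Tie1 at 183 and 153, a log2 ratio of -0.26 (-0.49 to -0.04), with Foxo1 at 100.0 and 106. In these cells Cdh5 was at 1288 and 984 CPM, the summed endothelial markers at 6829 and 5633, the smooth muscle markers at 350 and 29.3, and Hmga2 at 1.44 and 74.7, and their part was not tested. Proliferating ECs held Tie1 at 79.6 and 47.9 and Ptprb at 548 and 300, so the receptors and the phosphatase were lower there together, as Cdh5 was.

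**Figure D3:**
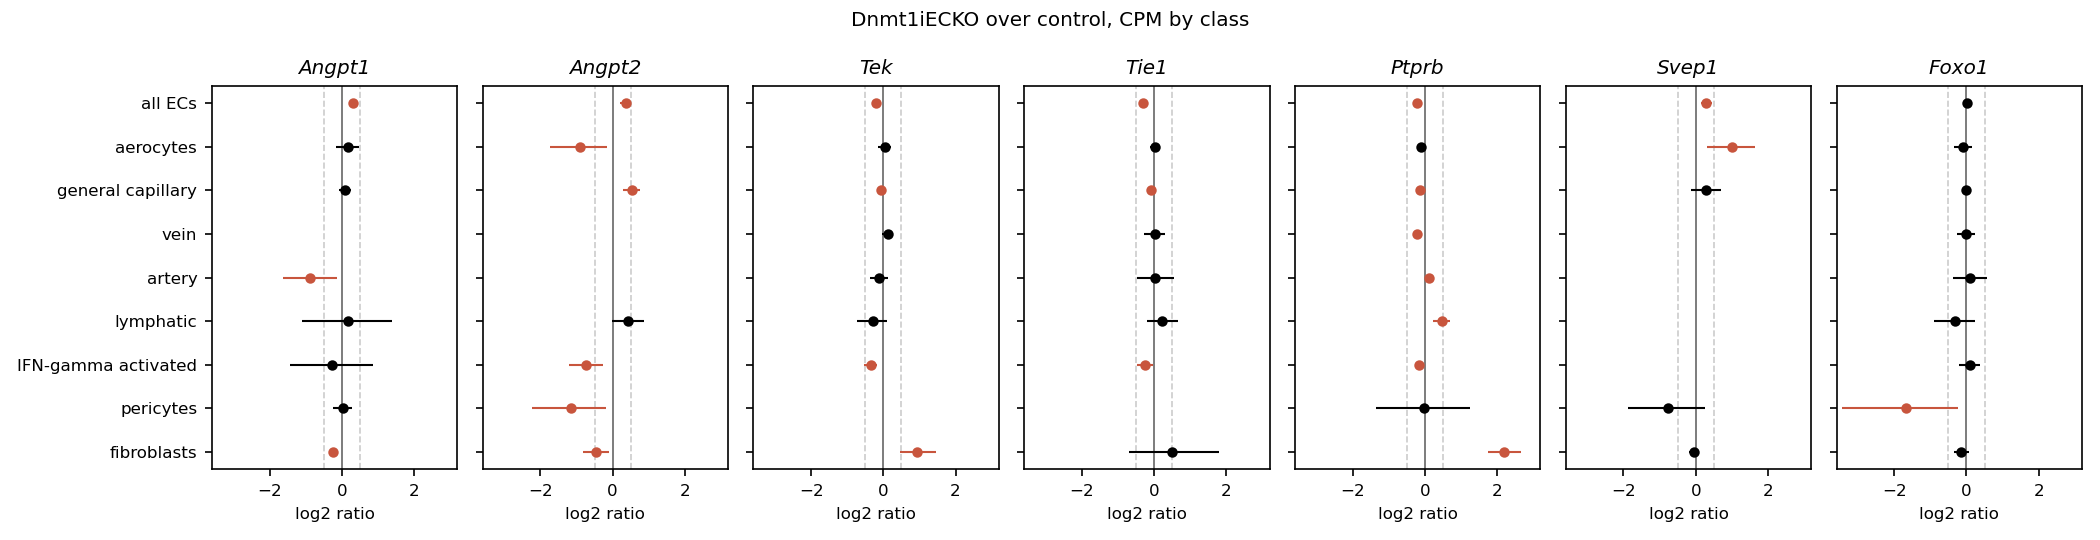
Log2 ratio of CPM, Dnmt1iECKO over control, of each of the 7 genes by class, with exact 95% counting intervals, in red where the interval leaves out 0. The solid line marks 0 and the dashed lines 0.5 in either direction. Most ratios of Tek, Tie1 and Foxo1 in blood vessel classes lie near 0, while Angpt2 is at 0.53 in general capillary cells and at -0.90 in aerocytes.

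The members were set beside all other genes with enough UMIs. Past a log2 ratio of 0.5 in either direction over all ECs lay 14.4% of the 14097 genes with at least 100 UMIs, and 0 of the 7 members. With at least 50 UMIs in a class, 2 of 7 members passed in aerocytes (Angpt2 lower and Svep1 higher) against 12.4% of genes, and 1 of 7 in general capillary cells (Angpt2, higher) against 10.6%. In veins 0 of 4 members passed against 17% of genes, in arteries 1 of 5 (Angpt1, lower) against 23%, in pericytes 0 of 1 against 40.9%, and in fibroblasts 2 of 6 (Tek and Ptprb, higher) against 11.4%. The median log2 ratio of the members was 0.009 over all ECs, beside 0.0005 for all genes counted.

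The genes that act with Tie2 were read over all ECs from fixed lists, with the same minimum of 100 UMIs. Of 18 adaptors and effectors of Tie2, such as the kinases and phosphatidylinositol 3-kinase subunits below it, 16 were measured. Of these, 1 was past 0.5, the kinase gene Pak1 (6.24 and 11.7 CPM, log2 0.90), none was past -0.5, and the list's median was -0.05. Among 7 sheddases and other receptor phosphatases none was past 0.5 in either direction, with a median of -0.09. Of 10 junction genes none was past 0.5, but 9 were below 0 and the median was -0.25. Of these, Cdh5 and Pecam1 also define the ECs, and by class Cdh5 was at 1730 and 1944 CPM in aerocytes, 1229 and 1244 in general capillary cells and 572 and 706 in veins. Over all ECs the 9 summed endothelial markers stood at 6545 and 5204 CPM and the melanoma markers at 192 and 341, and their part in the junction values was not tested.

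The numbers of genes past 0.5 in the other lists are to be read beside the 14.4% of all genes past it in either direction. Of 11 related ligands and integrins 8 were measured and 2 were past 0.5, Angptl4, an inhibitor of lipoprotein lipase (3.29 and 7.86, log2 1.26), and the secreted factor gene Angptl2 (15.7 and 26.9, log2 0.78), and the list's median was 0.41. Of 19 FOXO family members and targets 18 were measured, with a median of 0.13 and 11 above 0, and 3 were past 0.5: the repressor gene Bcl6 (14.2 and 23.6, log2 0.74), the insulin signaling adaptor gene Irs2 (11.7 and 18.9, log2 0.69) and Sesn3, a sestrin (21.1 and 31.4, log2 0.57). Of 9 VEGF ligands and receptors only the coreceptor gene Nrp2 was past 0.5 (74.1 and 112, log2 0.60), with a median of -0.08. These are the levels over all ECs, in which the summed fibroblast markers were also higher in the Dnmt1iECKO library, and their part in these values was not tested.

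**Figure D4:**
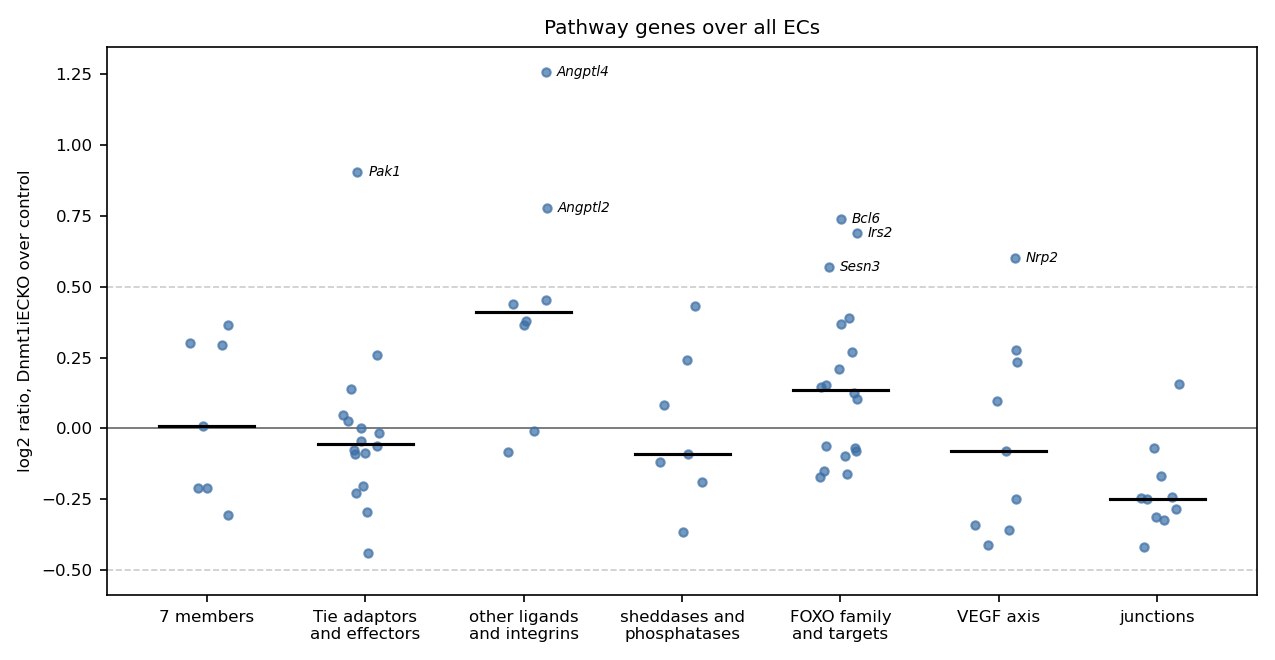
Log2 ratio of CPM over all ECs, Dnmt1iECKO over control, for each measured gene (point) of the 7 members and of 6 pathway lists, with the list's median as a bar and dashed lines at 0.5 in either direction. Of the named genes past the lines, Angptl4 at 1.26 and Pak1 at 0.90 lie highest, and the junction genes lie mostly below 0.

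The patterns across cell classes were compared as a description over 12 sums, the 4 EC classes, pericytes and fibroblasts in each of the 2 libraries, on a log2 scale after adding 10 CPM. Classes of 1 library share its depth and its free RNA, and the points are not independent. Among 13506 genes, those most like Tek were Acer2 (Pearson r 0.994), Cadps2 (0.992) and Ptprb (0.991), and Ptprb had Tek as its closest gene. Tie1 was closest to Erg, Tspan7 and Cyyr1 (0.996 to 0.993), of which Erg encodes an endothelial transcription factor. Svep1 was closest to Pcolce, Fgfr4 and Tcf21 (0.990 to 0.987). Tcf21 is a fibroblast transcription factor gene and 1 of the 10 markers that set the fibroblast gate, so its pattern is partly fixed by that gate. Angpt1 was closest to Ndrg2, Arhgef25 and Pdgfa (0.986 to 0.973). The closest genes to Angpt2 were Ajuba, Emid1 and Anxa6 (0.963 to 0.957), and those to Foxo1 were Mctp1, Ralb and Nop53 (0.982 to 0.972). Among the members themselves r was 0.910 for Tek with Tie1, 0.837 for Angpt1 with Svep1 and -0.913 for Tek with Svep1.

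Receptors and phosphatase thus lay almost wholly in ECs, and the stromal genes were shared out. ECs held 95.5% and 89.2% of all Tek UMIs in a library, 94.7% and 88.8% of Tie1 and 95.5% and 88.7% of Ptprb. For Angpt2 it was 77.3% and 67.1%, with 9.32% and 14.6% in fibroblasts. Svep1 was at 51.3% and 28.4% in ECs and at 40.2% and 55.5% in fibroblasts.

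**Figure D5:**
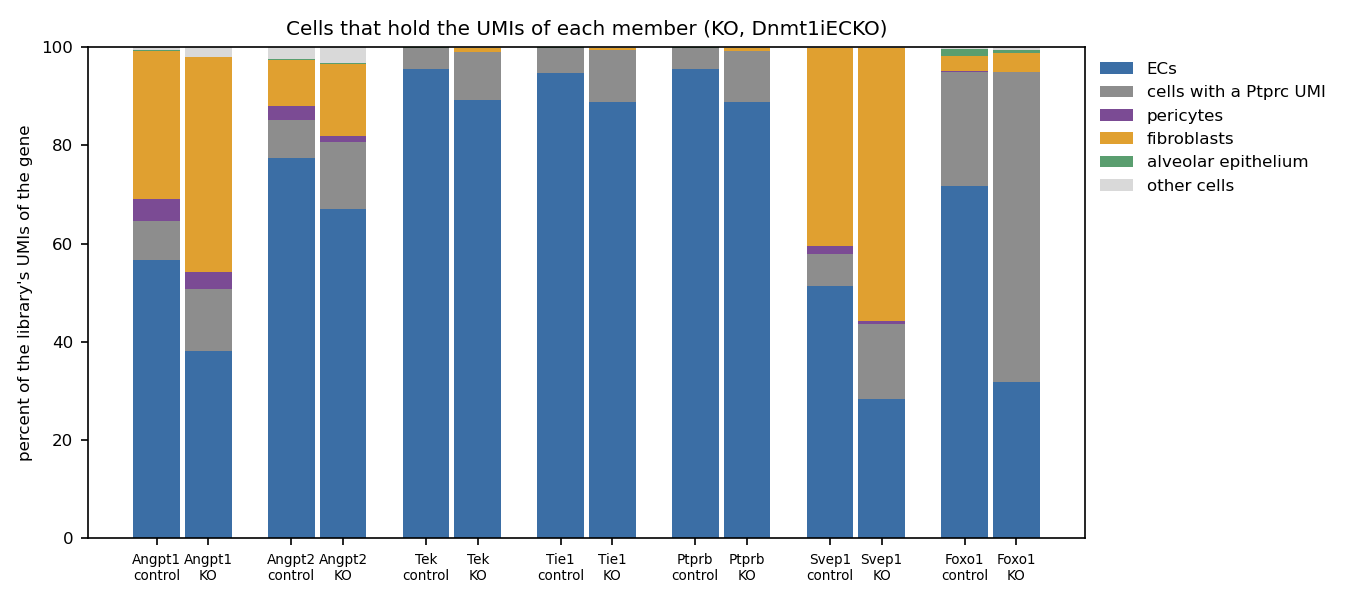
Percent of each gene's UMIs in a library that lay in ECs, cells with a UMI of Ptprc, pericytes, fibroblasts, alveolar epithelial cells and the other kept cells, as stacked bars for the control and Dnmt1iECKO libraries. Alveolar epithelial cells here are those outside the pericyte and fibroblast gates. Tek, Tie1 and Ptprb bars are nearly all EC, while Angpt1 and Svep1 bars hold a large fibroblast share and the Foxo1 bar of the Dnmt1iECKO library is mostly Ptprc-positive cells.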

How the data were processed

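Live CD31+CD45- cells of 2 pools of tumors were sequenced with a 10x Genomics 3′ kit (GEM-X v4 in the labels, v3 at another place there). Raw UMI counts per gene and cell were deposited by the authors as Cell Ranger matrices (version 9.0.1 and an mm10 reference, per the study's methods). Whether intronic reads were counted is not given in the sources used here. The matrices summed to 123830489 (control) and 141433493 (Dnmt1iECKO) counts.

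Cells with at least 500 genes and at most 10% mitochondrial UMIs were kept, and Scrublet's highest scores were removed at 0.4% per 1000 cells (257 and 263 cells), which left 7764 and 7839. Python 3.11.15, numpy 2.4.6, scipy 1.17.1, pandas 2.3.3, scanpy 1.11.5 and matplotlib 3.10.9 were used. Levels carry exact Poisson intervals, shares exact Clopper-Pearson intervals and ratios the exact interval conditional on both counts, all at 95%. Intervals were computed on simulated independent Poisson counts over all ECs, where 95.2% of those of 14097 genes (200 of them altered) held the simulated ratio. The intervals assume such counts, so this checks only their computation. It leaves out UMIs that are concentrated in single cells. A ratio within a class was formed from at least 20 UMIs. Genes named are the 7 members, Dnmt1, the gate and marker genes, list genes past 0.5, and the 3 genes most like each member. The members, lists and tests were chosen with earlier results of these data known. The alternatives concerned gene minimums, the mitochondrial limit, doublets, EC and class gates, scaling and weighting.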

Additional observations from a re-analysis of the deposited data

How the results depend on the processing

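No paired analysis was possible because each condition has 1 library. The log2 ratio of each member over all ECs (Dnmt1iECKO over control) was recomputed under other settings, 4 of which were chosen after seeing the data: ECs without mural (pericyte and smooth muscle) markers, ECs without mural and fibroblast markers, fibroblasts without Hmga2, and fibroblasts with Pdgfra and Tcf21. Of 117 values over all ECs, 76 stayed within the counting interval of the first value, 32 moved beyond it and 9 turned in direction. Of 540 values by class these numbers were 470, 59 and 11. Without mural markers the ratio was 0.077 for Tek, -0.070 for Tie1, 0.097 for Angpt1, 0.66 for Angpt2, 0.086 for Ptprb, 0.27 for Foxo1 and 1.31 for Svep1. Without mural and fibroblast markers it was 0.11 for Tek, -0.089 for Tie1, -0.26 for Angpt1, 0.099 for Ptprb and 0.33 for Foxo1. Without cells that had 3 markers of another cell type it was 0.0095 for Tek, -0.079 for Tie1, -0.37 for Angpt1, 0.00264 for Ptprb and 0.25 for Foxo1. Without cells with Epcam, Cspg4 or Myh11, a filter of the study, it was -0.036 for Tek, -0.15 for Tie1, 0.49 for Angpt1, -0.060 for Ptprb, 0.17 for Foxo1 and 0.46 for Svep1. With UMIs of both Cdh5 and Pecam1 it was -0.027 for Tek, -0.12 for Tie1, -0.027 for Ptprb, 0.155 for Foxo1 and 0.62 for Svep1. With each cell weighted equally it was -0.027 for Tek, -0.16 for Tie1, -0.011 for Ptprb, 0.15 for Foxo1 and 0.51 for Svep1. With doublets removed at 0.8% per 1000 cells it was -0.18 for Tek, 0.084 for Angpt1, -0.20 for Ptprb and -0.069 for Svep1. With control class composition it was -0.17 for Tek, -0.20 for Tie1 and 0.195 for Angpt1, and with at least 2000 genes per cell -0.23 for Ptprb. By class, the artery ratio of Ptprb turned to -0.0078 with no doublets removed, -0.027 without Epcam, Cspg4 or Myh11, -0.042 without cells with 3 markers of another type, -0.34 with gates on thinned cells, -0.19 without mural markers and -0.21 without mural and fibroblast markers. With each cell placed by the pair with most UMIs, Angpt2 turned to 0.076 in aerocytes and Angpt1 to 0.18 in arteries. With gates on thinned cells, Angpt2 in general capillary cells was close to even, at 13.6 (control) and 14.4 CPM (Dnmt1iECKO). The fibroblast ratio of Angpt1 turned to 0.049 without Hmga2, 0.25 with Pdgfra and Tcf21 and 0.082 with each cell weighted equally. The cause of these shifts was not tested. The 24 to 68 cells of the pericyte, vein and artery classes limit what their counts can show.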
